A study of Homo sapiens with 4 samples.

Results

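The genes described are TNFSF10, which encodes the death ligand TRAIL, and TNFRSF10A, TNFRSF10B, TNFRSF10C and TNFRSF10D, which encode its 4 membrane receptors. They are 5 of the 55764 gene names in the deposited expression table and were found there by name. They had been chosen on the measured difference between the ETS1 and control libraries, because death and decoy receptors were noted to move in opposite directions. Their levels are therefore given as a description, with no test. That description held for 3 of the 4 receptors only, since the decoy receptor gene TNFRSF10C was lower in the ETS1 libraries, as both death receptor genes were.

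RNA was sequenced in bulk from TE5, known as a human oesophageal squamous cell carcinoma line. The ETS1 group has 2 libraries, from cells with a stable construct that drives human ETS1, a transcription factor, from a CMV promoter. The control group also has 2 libraries, from cells with the empty backbone. The labels call the controls WT, describe lentiviral delivery with packaging in HEK293T cells where the design text speaks of plasmid transfection, and do not say whether either population was a clone or a pool. The labels number the libraries, but nothing in them says that these were separate cultures, so spread and p-values measure only the difference between these samples, which may be technical.

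TRAIL is a member of the TNF superfamily that starts apoptosis in many tumour cells while sparing most normal cells. It binds TNFRSF10A (also called DR4) and TNFRSF10B (DR5), whose cytoplasmic death domains recruit the adaptor FADD and the initiator caspase CASP8. TNFRSF10C (DcR1) is held in the membrane by a lipid anchor and has no cytoplasmic domain, and TNFRSF10D (DcR2) carries a truncated death domain, so both bind TRAIL without passing on the death signal and are known as decoy receptors. Cell death after TRAIL binding is also set by the CASP8 inhibitor CFLAR, by the mitochondrial arm through BID, BAX and BAK1, and by inhibitors of caspases such as XIAP.

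FPKM, the unit of the deposited values, counts fragments per kilobase of gene, scaled to a library's total, so FPKM levels of different genes can be compared per length. ETS1, the overexpressed gene, was at 0.491 and 0.509 FPKM in the controls and at 1.84 and 1.87 FPKM in the ETS1 libraries, a ratio of 3.71 of the means, and it passed limma's test across all genes with Benjamini-Hochberg adjustment (adjusted p 0.000704). It reached the mean of 1 FPKM needed for that test only through the ETS1 group, and without ETS1 replicate 1 or 2 it was not tested. With no filter on low values its adjusted p was 0.00847 in limma. The depth recovered from the values ranged from 40333279 to 57237290 reads, and both ETS1 libraries were deeper than both controls. Of the squamous markers KRT5, KRT14, KRT6A, TP63 and SOX2, only SOX2 reached a mean of 1 FPKM. The other 4 were listed at 0 in both controls and were at or under 0.0165 FPKM with ETS1. Those 4 do not bear out the squamous name of the line, and its identity was not tested. Of 5 simple epithelial markers 3 reached that mean: KRT8 and KRT18, at 3.87 to 10.5 FPKM, and EPCAM, at 0.915 to 1.37 FPKM. CDH1 was at 0.567 to 1.08 FPKM and the keratin KRT19 at or under 0.0224 FPKM. The leukocyte markers PTPRC, CD3E and CD68 were each at or under 0.0696 FPKM. The sum of the endothelial markers VWF and CDH5 was at most 0.0506 FPKM.

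The ligand was at the edge of detection. TNFSF10 (ENSG00000121858.10; chromosome 3, 172505508 to 172523507, minus strand of GRCh38 in GENCODE 29) stood at 0.00712 and 0.00652 FPKM in the controls and at 0 and 0.0153 FPKM in the ETS1 libraries. These values come from 1 and 1 reads against 0 and 3 reads, as recovered from the steps in the FPKM values. A count of 0 allows up to 3 reads by the usual one-sided limit, which is 0.0151 FPKM in that library, and 3.69 reads by the exact two-sided Poisson 95% interval. Both limits cover counting error only. The groups overlapped, all 4 values were at or under the limit of 3 reads, and no fold was computed. A change of the TRAIL transcript was not detectable at this depth.

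Of the 5 genes, the RefSeq promoter table used here matched TNFSF10. The 250 bases before its RefSeq start are shown because ETS factors bind sites with the core GGAA, and because the ligand stayed near 0 while ETS1 was higher. They lie at chr3:172523431-172523680 on the minus strand of GRCh38.p14. The RefSeq start lies inside the GENCODE 29 gene, whose start is at 172523507, so the part of the window nearest the RefSeq start is within that gene. The capitals mark GGAA on either strand, so TTCC as well.
TNFSF10: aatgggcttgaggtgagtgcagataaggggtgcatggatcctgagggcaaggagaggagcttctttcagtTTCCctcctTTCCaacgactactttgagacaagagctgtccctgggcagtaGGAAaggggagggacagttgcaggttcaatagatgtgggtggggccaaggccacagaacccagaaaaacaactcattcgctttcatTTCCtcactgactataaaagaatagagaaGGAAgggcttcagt
GGAA was found 2 times and its reverse complement TTCC 3 times, between 14 and 180 bases before the RefSeq start. Among 35116 promoters in the table, 92.7% held GGAA on either strand in the same 250 bases, with a median of 3 matches, and 18.6% held at least as many as TNFSF10. The longer ETS site CCGGAAGT, which contains GGAA, was absent on both strands and was present in 3.42% of all promoters. A match describes these letters and is no evidence of binding.

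TNFRSF10D, the decoy receptor with a truncated death domain, was the receptor gene that was higher with ETS1. It was at 0.322 and 0.301 FPKM in the controls and at 6.77 and 6.83 FPKM in the ETS1 libraries. The controls held 46 and 47 of its reads, the ETS1 libraries 1374 and 1368. Both ETS1 values were far above both control values, and the replicates of each group lay close together. The means were 0.311 ± 0.0149 and 6.80 ± 0.0437 FPKM (SD, n = 2 each), 21.8-fold higher with ETS1. Counting error alone gives the 46 reads an exact Poisson 95% interval of 33.7 to 61.4 reads. On the log2(FPKM + 1) scale the difference was 2.57, which ranked 1 from the top of the 14306 genes with a mean of at least 1 FPKM. TNFRSF10D was chosen on this contrast and reached that mean only through the ETS1 group, so the rank is only a description.

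TNFRSF10A, the gene of death receptor DR4, showed the opposite. It was at 2.47 and 2.48 FPKM in the controls and at 0.243 and 0.234 FPKM in the ETS1 libraries. The controls held 294 and 323 of its reads, the ETS1 libraries 41 and 39. The groups did not overlap, and the control mean of 2.47 ± 0.00863 FPKM was 10.4-fold above the ETS1 mean of 0.238 ± 0.00615 FPKM (SD, n = 2 each). The 39 reads of the lowest library have an exact Poisson 95% interval of 27.7 to 53.3 reads. The difference was -1.49 on the log2(FPKM + 1) scale, rank 12 from the bottom of the same 14306 genes. This rank too is only a description, since TNFRSF10A was chosen on this contrast and passed the filter only through the controls. The pseudocount compresses changes of such low genes, and in the authors' deposited table the log2 fold changes are -3.37 (standard error 0.243) for TNFRSF10A and 4.41 (standard error 0.183) for TNFRSF10D.

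TNFRSF10B, the gene of death receptor DR5, was the most abundant receptor transcript in every library. Its values were 48.8 and 49.2 FPKM in the controls and 35.1 and 34.3 FPKM in the ETS1 libraries. With 10028 to 11212 reads per library it was by far the most deeply counted of the 5 genes. The ETS1 values lay below both controls, at 34.7 ± 0.564 against 49.0 ± 0.254 FPKM (SD, n = 2 each), a ratio of 0.709. The control level stood at percentile 93.0 of the tested genes and the ETS1 level at percentile 90.5. Its log2(FPKM + 1) difference was -0.48.

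TNFRSF10C, the gene of the lipid-anchored decoy receptor, was low, and like TNFRSF10B it was lower with ETS1. It was at 1.24 and 1.21 FPKM in the controls and at 0.844 and 0.801 FPKM in the ETS1 libraries. The groups did not overlap, at 1.22 ± 0.0196 and 0.823 ± 0.0300 FPKM (SD, n = 2 each), a ratio of 0.673 and a log2(FPKM + 1) difference of -0.29. For TNFRSF10C the log2 fold change in the authors' deposited table is -0.44 (standard error 0.247). Before scaling, 131 and 140 reads stood against 127 and 119, so the read numbers were close and the difference appears after division by the deeper totals of the ETS1 libraries. The gene length behind its FPKM was 1.41 times the 1868 bases of exon in GENCODE 29, and that ratio was 1.00 for the other 4 genes, so the level of TNFRSF10C depends on the gene model used.

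**Figure D1:**
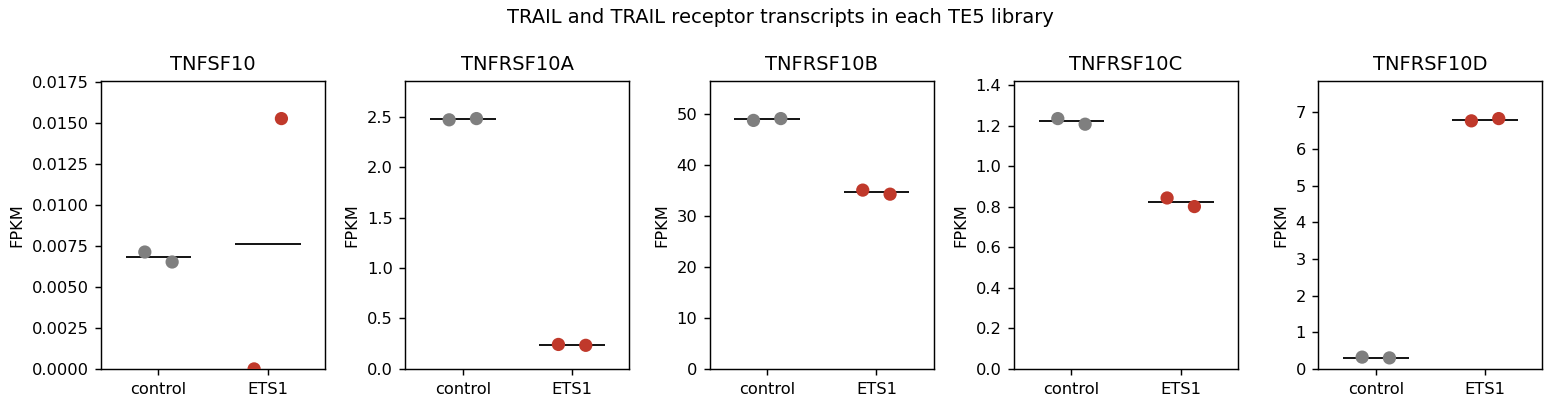
FPKM of TNFSF10 and the 4 TRAIL receptor genes in each of 4 libraries (grey points, control; red points, ETS1; black line, mean of 2 libraries), each panel with its own linear axis from 0. TNFRSF10D averages 0.311 FPKM in the controls and 6.80 with ETS1, TNFRSF10A 2.47 and 0.238, TNFRSF10B and TNFRSF10C are lower with ETS1, and TNFSF10 stays at or under 0.0153.

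Of the 5 genes, 4 had groups that did not overlap, 1 higher and 3 lower with ETS1. Among all 14306 tested genes 43.1% were higher and 38.9% lower without overlap, and since the genes were chosen on this contrast nothing is read from the count. All 4 receptor genes passed the filter of a mean of 1 FPKM, and TNFSF10 did not. TNFRSF10A, TNFRSF10C and TNFRSF10D passed it only through the group in which they were high. In bulk RNA, a smaller share of cells that express a gene and less of its RNA in each cell cannot be told apart.

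**Figure D2:**
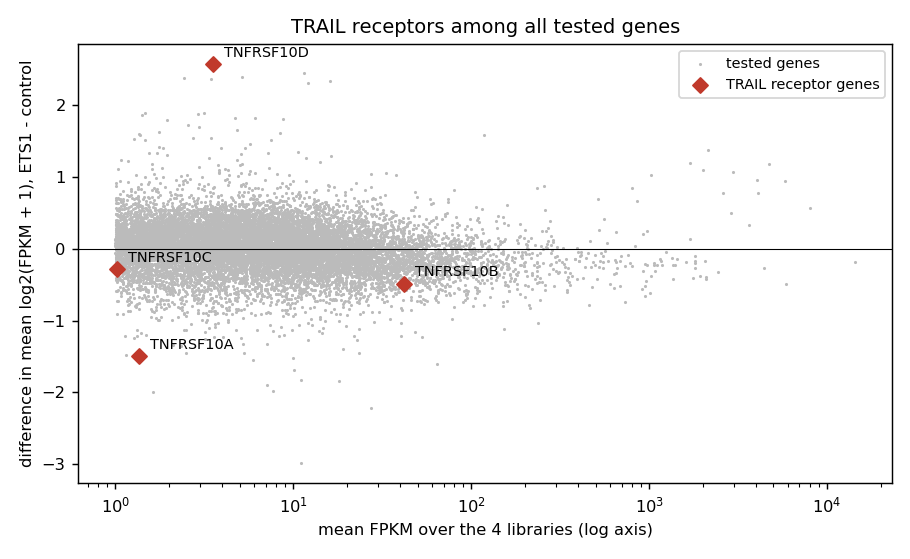
Difference in mean log2(FPKM + 1) between ETS1 and control (vertical axis) against mean FPKM over the 4 libraries (log axis) for the 14306 tested genes (grey) and the 4 receptor genes (red). TNFRSF10D, at 2.57, lies above all other tested genes, TNFRSF10A, at -1.49, lies near the lower edge, and TNFRSF10B and TNFRSF10C lie within the cloud.

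The order of the receptor levels changed between the groups. In the controls it ran from TNFRSF10B through TNFRSF10A and TNFRSF10C down to TNFRSF10D, and with ETS1 from TNFRSF10B through TNFRSF10D and TNFRSF10C down to TNFRSF10A. In each library every receptor in these orders was separated from the next by more than the spread between replicates. Summed over the 4 genes the level was 53.0 ± 0.228 FPKM in the controls and 42.6 ± 0.556 FPKM with ETS1 (SD, n = 2 each). The decoy genes TNFRSF10C and TNFRSF10D together made up 2.95% and 2.84% of that sum in the controls and 17.7% and 18.1% in the ETS1 libraries. In the controls most of the decoy share was TNFRSF10C, at 2.31% of the sum, and with ETS1 most of it was TNFRSF10D. TNFRSF10D made up 0.587% ± 0.0306 of the sum in the controls and 15.97% ± 0.311 with ETS1 (SD, n = 2 each). The share of TNFRSF10A was 4.67% and 0.559%. TNFRSF10B still supplied 81.7% and 81.4% of the receptor sum in the ETS1 libraries, and exceeded TNFRSF10D 5.19 and 5.03 times there, against 152 and 164 times in the controls.

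**Figure D3:**
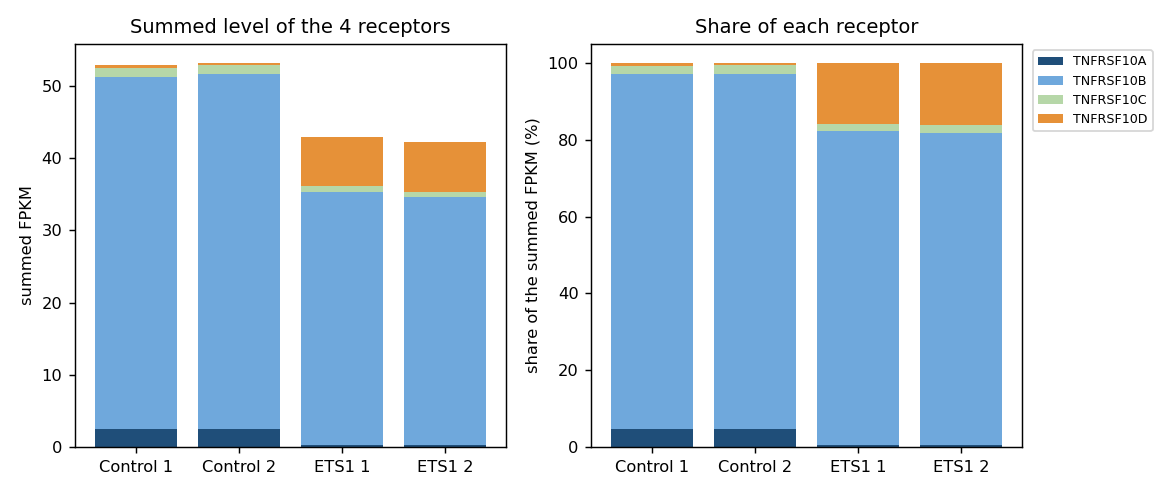
Summed FPKM of the 4 TRAIL receptor genes (left, stacked bars from 0) and the share of each gene in that sum in percent (right) for each of the 4 libraries. TNFRSF10B is the largest part of every bar, the total is lower with ETS1, and TNFRSF10D makes up 0.587% of it on average in the controls and 15.97% with ETS1.

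The 4 receptor genes lie side by side within 205 kb on chromosome 8, between 23020133 and 23225126 on GRCh38 in GENCODE 29. From the lower coordinate the order is TNFRSF10B (23020133 to 23069179, minus strand), TNFRSF10C (23102590 to 23117437, plus strand), TNFRSF10D (23135588 to 23164030, minus strand) and TNFRSF10A (23190452 to 23225126, minus strand). TNFRSF10D and TNFRSF10A, which moved most and in opposite directions, are therefore neighbours. Their longest proteins in GENCODE 29 have 468 residues for TNFRSF10A, 440 for TNFRSF10B, 259 for TNFRSF10C and 386 for TNFRSF10D. The shortest is the receptor that lacks a cytoplasmic domain. Over aligned residues the identity was 66.0% between the 2 decoy receptors, the highest of the 6 pairs, and 57.9% between the 2 death receptors. No stretch of 50 bases was identical between the annotated transcripts of any of the 5 genes, which bears on whether reads could be shared between them.

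Neighbouring genes outside the cluster were lower with ETS1 as well. Of 21 listed protein-coding neighbours, 14 were tested, and limma called 13 lower and 0 higher at an adjusted p under 0.05. Over all tested genes 28.4% were called lower and 30.7% higher. The list's median log2(FPKM + 1) difference was -0.57, against 0.016 over all tested genes. On the side of TNFRSF10A, CHMP7, a gene of the membrane-remodelling ESCRT machinery, fell from 10.5 ± 0.133 to 6.62 ± 0.214 FPKM (SD, n = 2 each; limma adjusted p 0.000648). R3HCC1 fell from 23.4 ± 0.741 to 14.8 ± 0.341 FPKM (SD, n = 2 each; limma adjusted p 0.000595). LOXL2, which encodes a lysyl oxidase-like enzyme, was at 2.44 and 2.30 FPKM on average and did not pass (limma adjusted p 0.348). On the side of TNFRSF10B, RHOBTB2 fell from 2.51 to 1.59 FPKM (limma adjusted p 0.00209) and CCAR2 from 15.2 to 9.41 FPKM (limma adjusted p 0.000534). BIN3 had a difference of -0.20 with a limma adjusted p of 0.0419, and this call was lost under 6 of 12 alternatives, with adjusted p-values of 0.0702 to 0.18.

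The size of the fall in these neighbours can be set beside the receptors. As plain FPKM ratios of ETS1 to control, the 14 tested neighbours ran from 0.560 to 0.944 with a median of 0.633. TNFRSF10B at 0.709 and TNFRSF10C at 0.673 lay inside that range. TNFRSF10A at 0.0962 lay below it and TNFRSF10D at 21.8 above it. In a wider window chosen after the values were seen, limma called 61 of 76 tested protein-coding genes within 10 Mb lower and 3 higher, with a median ratio of 0.720. On the rest of chromosome 8 it called 125 of 301 lower and 90 higher, with a median ratio of 0.946. The part of this regional difference in the receptor levels was not tested. TNFRSF10A is overlapped by 3 annotated genes on the opposite strand and TNFRSF10B by 2, among them RHOBTB2. TNFRSF10C is overlapped by 2 on the same strand, AC107959.4 and the protein-coding AC107959.5, where strand cannot separate the reads. Whether reads were counted by strand is not given in the sources used here.

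**Figure D4:**
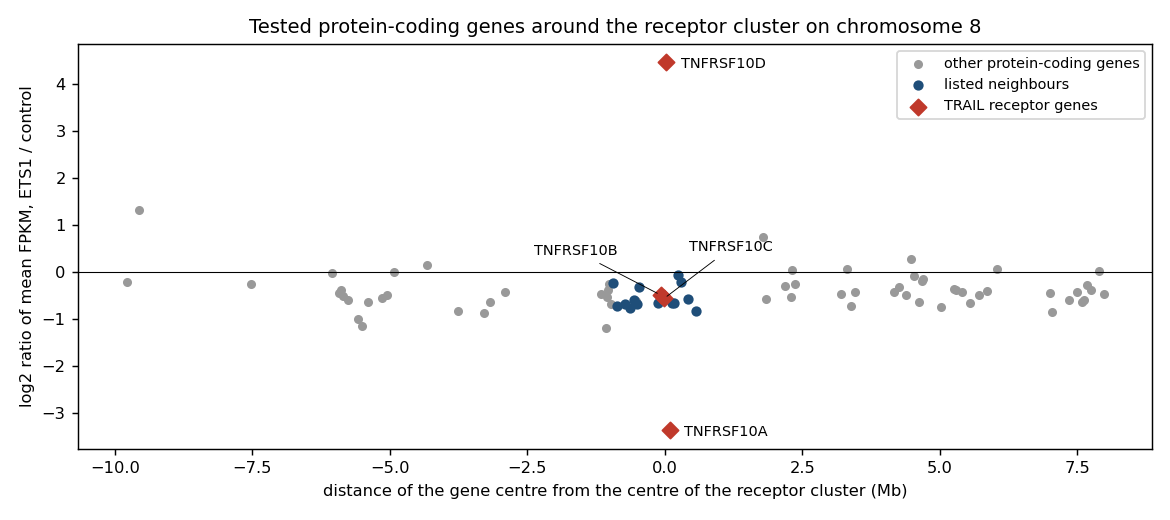
Log2 ratio of mean FPKM, ETS1 over control, for tested protein-coding genes within 10 Mb of the receptor cluster against the distance of the gene centre from the cluster centre in Mb (red diamonds, TRAIL receptors; blue, listed neighbours; grey, other genes). Most genes lie below 0; TNFRSF10B and TNFRSF10C lie among their neighbours, while TNFRSF10D and TNFRSF10A lie far above and below them.

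The genes most like TNFRSF10D across the 4 libraries were sought by the distance between centred log2(FPKM + 1) values. The nearest were SNAI2, which encodes a repressor of epithelial genes, at a distance of 0.251, INA, which encodes a neuronal intermediate filament, at 0.259, and the microRNA gene MIR34A at 0.295. SNAI2 had 4.86 and 4.54 FPKM in the controls and 26.9 and 28.4 FPKM in the ETS1 libraries. MIR34A rests on few reads, 0 and 1 in the controls against 28 and 31 with ETS1. The likeness is over 4 libraries in 2 groups and is mostly set by the size of the group difference.

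Other receptors and ligands of the TNF superfamily were compared next. Of 42 listed genes 18 were tested, with 4 called higher and 4 called lower by limma, which is 22.2% each against 30.7% and 28.4% over all tested genes. The list's median log2(FPKM + 1) difference was -0.065. After median centring of the libraries the counts were 2 and 8. TNFRSF9, the costimulatory receptor 4-1BB, rose from 0.907 ± 0.0236 to 4.57 ± 0.136 FPKM (SD, n = 2 each; limma adjusted p 0.000417). It passed the filter only through the ETS1 group, and with no filter its limma adjusted p was 0.00759. NGFR, the low-affinity neurotrophin receptor, fell from 1.92 ± 0.387 to 1.00 ± 0.0323 FPKM (SD, n = 2 each; limma adjusted p 0.0102). TNFRSF13C, the BAFF receptor, fell from 4.26 ± 0.864 to 2.92 ± 0.108 FPKM (SD, n = 2 each; limma adjusted p 0.0327). Calls for NGFR and TNFRSF13C were lost with no filter on low values, with adjusted p-values of 0.0607 and 0.134. The TNFRSF13C call was also lost without ETS1 replicate 1 or 2, with adjusted p-values of 0.101 and 0.0776.

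Among the other named receptors of the family, the death receptor FAS was at 6.60 ± 0.0730 FPKM in the controls and 6.82 ± 0.278 FPKM with ETS1 (SD, n = 2 each). The difference did not pass (limma adjusted p 0.426). TNFRSF25, or DR3, was at 1.78 and 1.86 FPKM (limma adjusted p 0.601). TNFRSF21, or DR6, was at 6.12 and 5.55 FPKM (limma adjusted p 0.114), and it passed under quantile normalization, under median centring and without Control replicate 2, with adjusted p-values of 0.0283 to 0.0315. TNFRSF1A, the main receptor of TNF itself, had a difference of 0.14 (limma adjusted p 0.0263) that was lost under 7 of 13 alternatives, with adjusted p-values of 0.0516 to 0.119. TNFRSF12A, the TWEAK receptor, fell from 14.2 to 12.3 FPKM (limma adjusted p 0.00721), and without ETS1 replicate 1 its adjusted p was 0.0505. TNFRSF11B, which encodes osteoprotegerin, a soluble receptor that also binds TRAIL, was below the filter at 0.0547 and 0.0435 FPKM. TNFRSF6B, a soluble decoy receptor for FAS ligand, was listed at 0 in all 4 libraries, and LTBR, the lymphotoxin receptor, averaged 0.0036 and 0.00139 FPKM.

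Signalling genes below the receptors comprised the complex at the activated receptors, the mitochondrial arm, and caspases with their inhibitors, DFFA, DFFB and PARP1. Of 35 listed genes 29 were tested, with 11 called higher and 6 lower by limma, against 30.7% and 28.4% over all tested genes, and a median log2(FPKM + 1) difference of 0.070. Without ETS1 replicate 1 or 2 the higher calls numbered 7 and 6. In the receptor complex 8 of 11 listed genes were tested, with 4 called higher and 1 lower. FADD, the adaptor, was at 1.77 and 1.81 FPKM and did not pass (limma adjusted p 0.712). CASP8, the initiator caspase, rose from 1.39 ± 0.0796 to 2.21 ± 0.00461 FPKM (SD, n = 2 each; limma adjusted p 0.00322). CASP10, its close relative, had 0.433 and 0.452 FPKM in the controls and 1.32 and 1.28 FPKM with ETS1, under the filter and therefore not tested. CFLAR, the inhibitor of CASP8, was at 1.76 and 1.85 FPKM (limma adjusted p 0.492). TNFAIP3, which encodes the ubiquitin-editing protein A20, rose from 2.73 ± 0.00777 to 7.36 ± 0.0683 FPKM (SD, n = 2 each; limma adjusted p 0.000417). RIPK1, a kinase of the death and NF-kB branches, had a difference of 0.28 (limma adjusted p 0.0194), and TRAF2, an adaptor of the NF-kB branch, fell by 0.23 on the log2(FPKM + 1) scale (limma adjusted p 0.00979). The RIPK1 call was lost without ETS1 replicate 1 or 2 and with no filter on low values, with adjusted p-values of 0.0715, 0.0612 and 0.0879.

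In the mitochondrial arm 3 of 11 tested genes were called higher and 3 lower, shares near the 30.7% and 28.4% over all tested genes. BID, which links CASP8 to mitochondria, fell from 10.3 ± 0.242 to 7.58 ± 0.159 FPKM (SD, n = 2 each; limma adjusted p 0.00126). BAX and BAK1, which open the outer membrane, fell from 84.0 to 58.0 FPKM and from 19.97 to 14.35 FPKM (limma adjusted p 0.00085 and 0.000851). APAF1, the scaffold that activates CASP9, rose from 3.25 to 4.86 FPKM (limma adjusted p 0.00104), and CASP9 itself was at 4.10 and 4.35 FPKM (limma adjusted p 0.355). MCL1, an anti-apoptotic member of the BCL2 family, rose from 53.0 to 63.4 FPKM (limma adjusted p 0.00201). BCL2L1, which encodes the related BCL-XL, was at 13.4 and 14.1 FPKM (limma adjusted p 0.196). DIABLO, which relieves caspase inhibition, was below the filter at 0.886 and 0.832 FPKM.

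Among the caspases, their inhibitors, DFFA, DFFB and PARP1, 10 of 11 listed genes were tested. Of these 4 were called higher and 2 lower, against 30.7% and 28.4% over all tested genes. The 2 lower calls were DFFA and PARP1 (limma adjusted p 0.00633 and 0.0289), which are neither caspases nor their inhibitors. XIAP, an inhibitor that binds caspases directly, rose by 0.20 on the log2(FPKM + 1) scale (limma adjusted p 0.0151), and its adjusted p was 0.0844 without ETS1 replicate 2 and 0.0579 with no filter on low values. BIRC2 had a difference of 0.13 (limma adjusted p 0.0238), and its call was lost under 6 of 13 alternatives, with adjusted p-values of 0.0586 to 0.185. BIRC3 was below the filter at 0.259 and 0.192 FPKM.

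Genes reported to act on TRAIL receptor or TRAIL transcription, glycosylation or surface transport were compared last. Of 27 listed genes 23 were tested, with 11 called higher and 4 lower by limma, which is 47.8% and 17.4% against 30.7% and 28.4% over all tested genes. The list's median log2(FPKM + 1) difference was 0.13. Without ETS1 replicate 1 the lower calls numbered 2, and after median centring 7. Of the 17 transcription factors 7 were called higher and 4 lower, beside the same 30.7% and 28.4%. EGR1, an immediate early factor, rose from 2.26 ± 0.0358 to 6.03 ± 0.0180 FPKM (SD, n = 2 each; limma adjusted p 0.000435). JUN, a subunit of AP-1, rose from 92.3 ± 3.26 to 122.8 ± 1.43 FPKM (SD, n = 2 each; limma adjusted p 0.00108). IRF1, which carries interferon signals, rose from 1.51 to 2.23 FPKM (limma adjusted p 0.00837). DDIT3, the stress factor CHOP that activates the DR5 gene, fell from 31.3 to 27.4 FPKM (limma adjusted p 0.00486). Of 10 listed genes of glycosylation and transport 6 were tested, with 4 called higher and 0 lower, beside those same shares over all tested genes. Of the O-glycosylation enzymes, GALNT14 was at 0.601 and 0.706 FPKM and GALNT3 at 0.944 and 0.845 FPKM, both below the filter. Over all tested genes, centring each library on its median moved the median difference from 0.016 to -0.049, and limma then called 3284 genes higher and 5064 lower in place of 4394 and 4057.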

How the data were processed

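The authors deposited FPKM values for 55764 gene names in 4 libraries, and a table of their own comparison of 16652 genes. The authors used HISAT2, HTSeq and DESeq2 with GRCh38, per the submitters' processing notes; annotation and strand use are not given in the sources used here. In the authors' table the mean normalized count is a signal averaged over libraries, the fold changes and standard errors are log2 values, and p-value columns are given, per the file headers. Those p-values were used only for an alternative. Here limma 3.58.1 (R 4.3.3) was run across all genes on log2(FPKM + 1) for 14306 genes that averaged 1 FPKM or more. The design had a group term and a variance trend, with two-sided tests and Benjamini-Hochberg adjustment at 0.05, and it was tested on simulated data. The smallest p an exact two-sided permutation test allows for 2 against 2 is 0.333, and limma's p-values lean on variance shared across genes. FPKM values of a gene stand in whole-number ratios once the libraries' totals are known, and the smallest whole numbers within 1e-05 gave the reads. The authors' mean counts settled multiples for 99.6% of the genes in their table; for TNFSF10 the gene length did. Replicates differed by more than counting noise (mean chi-square per gene 4.08 and 4.04). The 5 genes and all lists were chosen with earlier results of these data known. Named genes followed a rule: fixed genes of each list, its largest called changes, the nearest neighbours on either side of the receptor cluster, and the 3 genes most like the receptor with the largest difference. Some genes the rule names are not reported here. Alternatives were another pseudocount, other filters, scalings and variance priors, a replicate block, the authors' table and leaving out each library; voom on the recovered reads was added after seeing the data.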

Additional observations from a re-analysis of the deposited data

How the results depend on the processing

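The receptor genes kept their direction under every alternative that gave them a value. They were chosen on these same libraries, so a kept direction is no independent support. TNFRSF10A, TNFRSF10C and TNFRSF10D had no value at a mean FPKM of at least 5. TNFRSF10A and TNFRSF10C also had none when either control library was left out. TNFRSF10D ran from 2.47 to 4.44 in log2 units over 12 alternatives, TNFRSF10A from -3.37 to -1.48 over 10, TNFRSF10B from -0.55 to -0.37 over 13 and TNFRSF10C from -0.57 to -0.27 over 10. These ranges mix unlike measures. For TNFRSF10D the log2(FPKM + 1) differences ran from 2.47 to 2.58. A pseudocount of 0.1 gave 4.07, the authors' fold change 4.41 and voom 4.44. The decoy share of the receptor sum was 15.0 percentage points higher with ETS1, and 14.8 to 15.2 when 1 library was left out. With the replicate number as a block, limma called 3712 genes higher and 3571 lower; differences between libraries 1 and 2 correlated at -0.046 across groups, so the numbers were not treated as pairs. Under the block the calls of TNFRSF1A (adjusted p 0.0516), BIRC2 (0.0586) and BIN3 (0.088) were lost. At a mean FPKM of at least 5, 2562 genes were called higher, with 2 TNF superfamily genes lower, 6 controllers higher and 8 of 8 tested neighbours lower; fewer genes were tested. TNF superfamily genes called higher numbered 2 with no filter, under median centring and in the authors' deposited table, and 8 were lower under median centring. Controllers called lower numbered 7 under median centring and 2 under quantile normalization. When 1 library was left out, all genes called higher ranged from 2754 (without ETS1 replicate 2) to 3989, and signalling genes called higher from 6 to 11. TNF superfamily genes ranged from 1 to 3 higher and from 2 to 5 lower, and controllers from 2 to 5 lower; the lowest of these 3 ranges came without ETS1 replicate 1. Signs that flipped were all uncalled: FAS (-0.012 under quantile normalization, -0.024 under median centring), FADD (-0.012 and -0.040), TNFRSF25 (-0.024 under median centring, -0.0046 to 0.087 leaving out 1 library) and CFLAR (-0.020 under median centring). A group left with 1 library was assumed to vary like the other group. The cause of these shifts was not tested. Depth limits TNFSF10, and with fewer reads TNFRSF10C, TNFRSF10A with ETS1 and TNFRSF10D in the controls.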
